A study of Homo sapiens with 20 samples.

Results

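The untreated state of an immortalized human pericyte line was described from 5 RNA sequencing libraries, those whose titles give them as control, out of 20 in the series. The series asked how eNAMPT, the secreted form of nicotinamide phosphoribosyltransferase, acts on pericytes, and its other libraries come from the same line given eNAMPT, the growth factor PDGF-BB or both for 4 hours. The control cells were the wild-type line CL 05008-CLTH from Celther, grown in DMEM with 10% fetal bovine serum and antibiotics and plated at 400000 cells in 6-well plates. The labels call the 5 libraries biological replicates, give no passage, day or vehicle for them, and name 1 line, so the spread between libraries is the spread between samples of that line and holds no variation between donors.

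Pericytes are mural cells, which wrap the endothelium of capillaries and small venules and share the vessel wall with smooth muscle cells of larger vessels. They depend on platelet-derived growth factor signalling through the receptor PDGFRB, deposit basement membrane together with the endothelium, and can contract or turn into matrix-producing cells. In culture they are told from other cells by sets of genes rather than by a single marker, since several pericyte markers are shared with fibroblasts, smooth muscle and other stromal cells.

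Levels are given as CPM, the gene's raw count scaled to 1000000 gene counts of its library, with spike-in rows removed, as mean ± SD over the 5 libraries (n = 5). Levels of different genes are compared as CPM per kilobase, which is CPM divided by the length of the gene's merged exons in GENCODE 29. The library kit is not given, so whether counts rise with transcript length is not known, and some orders per kilobase reverse in CPM. Where genes are ranked by CPM or by counts, the rank is a share of the reads and not a level per length. A gene was counted as expressed where it reached 1 CPM in each of the 5 libraries. By that rule 11872 of 58676 genes (20.2%) and 10951 of 19922 protein-coding genes (55%) were expressed, and the share of each gene list below is read against the latter. A gene with 0 counts in all 5 libraries could stand at up to 0.187 CPM, the level of 3 counts over the 5 libraries, and this limit covers counting error only. Since the RNA is bulk RNA, fewer cells carrying a transcript and less transcript per cell cannot be told apart. Single values in sequence are always those of replicates 1 to 5 in that order, which is an order of names only.

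Gene counts were 2963873 to 3726752 per library, and spike-in transcripts added 1.57% to 2.37% of counts. No 2 libraries agreed within sampling noise, with a chi-square per degree of freedom of 3.13 to 6.60 over the 10 pairs, so all 5 were kept as separate samples. Replicate 4 had the most gene counts and the smallest spike-in share, and replicate 5 the fewest gene counts and the largest spike-in share.

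The line carried transcripts of the receptor and of several surface proteins of pericytes, while other genes that mark pericytes in tissue were at or near 0. PDGFRB, the receptor for PDGF-BB (ENSG00000113721, GRCh38 chromosome 5, 150113837 to 150155872), stood at 134, 139.8, 118, 149 and 129.9 CPM, a mean of 134 CPM ± 11.6. These 5 values lay close together and gave PDGFRB the highest mean of the pericyte list per kilobase, at 18.8 ± 1.63 CPM per kilobase, clear of the range of CD248 but not of ANPEP, which read 6.93 to 18.3 CPM per kilobase. CSPG4, the proteoglycan NG2 (ENSG00000173546, chromosome 15, 75674322 to 75712848), read 45.2, 52.6, 45.4, 60.6 and 64.8 CPM, with a mean of 53.7 CPM ± 8.87. CD248, the membrane protein endosialin, read 34.2, 33.1, 31.8, 32.5 and 35.8 CPM and was the steadiest of the expressed pericyte markers named here. ANPEP, the aminopeptidase CD13 (ENSG00000166825, chromosome 15, 89784889 to 89815401), was uneven, at 73.2, 88.9, 70.9, 49.1 and 33.7 CPM. Its values in replicates 4 and 5 lay below all 3 others.

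RGS5, a regulator of G protein signalling that is much used to mark pericytes in tissue (ENSG00000143248, chromosome 1, 163111121 to 163321791), read 15.9, 19.5, 27.5, 21.2 and 25.6 CPM, a mean of 21.9 CPM ± 4.69. MCAM, the adhesion molecule CD146, stood at 20.6 CPM ± 3.36. The transcription factors TBX18, EBF1 and FOXS1, which are found in mural cells, stood at 30.5 CPM ± 5.41, 27.6 CPM ± 5.59 and 9.51 CPM ± 2.97. NOTCH3, the Notch receptor of mural cells, stood at 8.01 CPM ± 1.49 and ABCC9, the sulfonylurea receptor subunit of a potassium channel, at 7.92 CPM ± 1.58. KCNJ8, the pore subunit that pairs with ABCC9, read 3.05, 0.992, 3.31, 2.95 and 5.06 CPM and missed the threshold only in replicate 2. Per kilobase the ranges of the 5 libraries overlapped between neighbours from CD248 through ANPEP, FOXS1, CSPG4, EBF1, TBX18 and RGS5 to MCAM, so neighbours in this stretch of the order do not differ beyond the spread of the libraries.

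HIGD1B, COX4I2, GJA4, STEAP4 and VTN had 0 counts in all 5 libraries, which allows up to 0.187 CPM for each. DES, the intermediate filament desmin, read 0, 0.331, 0, 1.88 and 0.337 CPM and so rests mostly on replicate 4. The surface amine oxidase AOC3 stood at 0.693 CPM ± 0.472. The mitochondrial subunit NDUFA4L2 stood at 0.746 CPM ± 0.494, the Notch effector HEYL at 0.507 CPM ± 0.382, the laminin chain LAMC3 at 0.337 CPM ± 0.754 and the aminopeptidase ENPEP at 1.177 CPM ± 0.769. In all 11 of 23 pericyte markers were expressed, or 47.8%, with a median of 3.07 CPM. That share is near the 55% of all protein-coding genes, so the count alone does not set the list apart, and what there is of a pericyte profile rests on the named members.

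**Figure D1:**
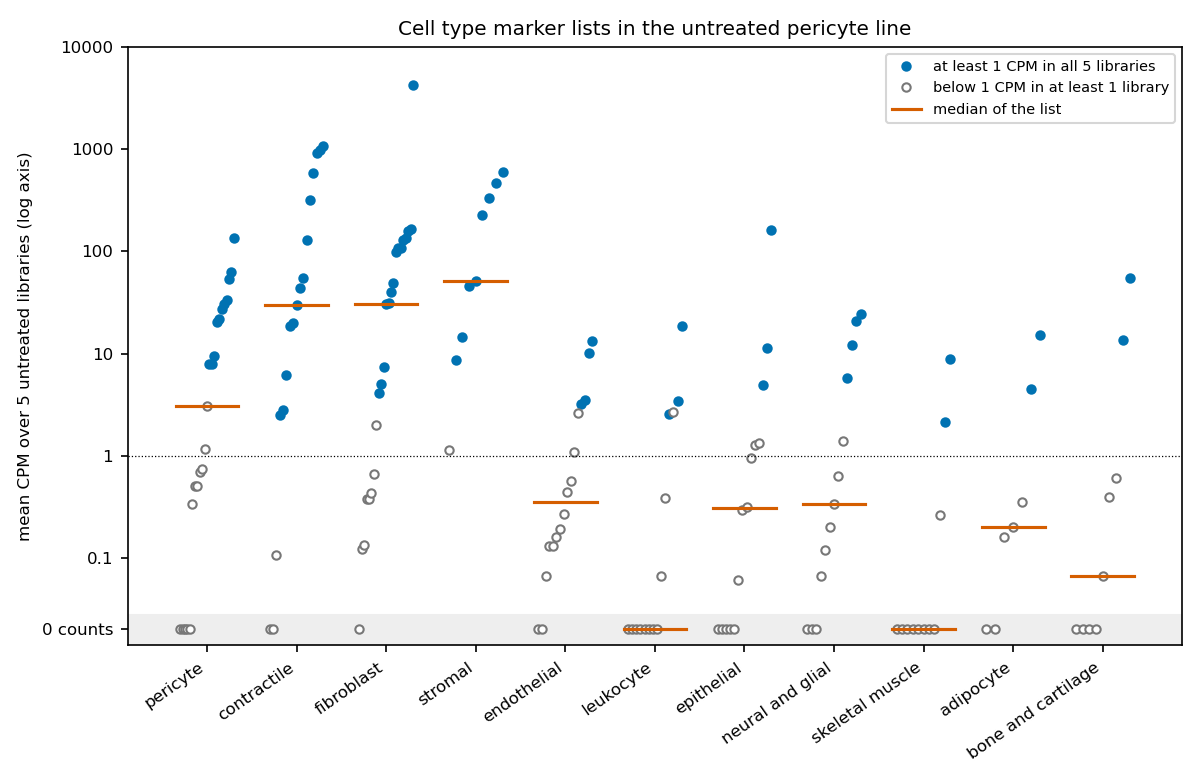
Mean CPM over the 5 untreated libraries (log axis, with genes at 0 counts in the grey band) for every member of 11 cell type marker lists, with 1 point per gene and a bar at the list median. Filled points reached 1 CPM in all 5 libraries. The contractile, fibroblast and stromal lists have medians of 30.1, 30.3 and 51.0 CPM, the pericyte list 3.07 CPM, and the other 7 lists medians below 1 CPM.

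Genes of the contractile apparatus were expressed in 14 of 17 cases, or 82.4%, with a median of 30.1 CPM. They included the actin-binding proteins shared by many cultured mesenchymal cells at high levels. Genes more tied to smooth muscle ranged from SMTN at 129 CPM to PLN and CASQ2 at 0 counts. TAGLN, the calponin-related protein transgelin (ENSG00000149591, chromosome 11, 117199321 to 117204782), stood at 984.8 CPM ± 259, TPM2, a tropomyosin, at 579.6 CPM ± 45.8, and MYL9, a regulatory myosin light chain, at 321 CPM ± 33.3. Per kilobase these were the first 3 of the list, at 251, 178 and 114 CPM per kilobase, and the ranges of TAGLN and TPM2 overlapped while those of TPM2 and MYL9 did not. CALD1, the actomyosin regulator caldesmon, followed at 92.7 CPM per kilobase and TPM1, a second tropomyosin gene, at 82.6, with overlapping ranges. The place of TPM1 depends on the length used. In CPM its mean, 1063, was above that of TAGLN, and per kilobase of the longest transcript it stood at 269 against 299 for TAGLN.

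ACTA2, the alpha smooth muscle actin gene used most often to follow the contractile state (ENSG00000107796, chromosome 10, 88935074 to 88991339), read 47.6, 41.7, 40.7, 83.7 and 62.1 CPM. Replicate 4 was highest and replicate 3 lowest, and the mean was 55.2 CPM ± 18.1, or 18.5 CPM per kilobase. An antisense gene, ACTA2-AS1, overlaps 30.1% of the ACTA2 exons and stood at 0.127 CPM. The library strand setting is not given in the sources used here, so reads of such antisense pairs could not be assigned by strand. CNN1, the calponin of smooth muscle, stood at 30.1 CPM ± 6.13, SMTN, smoothelin, at 129 CPM ± 13.3, and MYLK, the myosin light chain kinase, at 44.2 CPM ± 9.29. ACTG2, the smooth muscle gamma actin of gut and bladder wall, read 23.2, 30.4, 14.6, 18.2 and 12.8 CPM. MYH11, the smooth muscle myosin heavy chain that marks the mature cell, had 2 counts over the 5 libraries, a mean of 0.107 CPM, which is under the floor of 3 counts. PLN and CASQ2, calcium-handling proteins of the sarcoplasmic reticulum, had 0 counts. MYOCD, the coactivator of serum response factor that drives smooth muscle genes, was expressed at 6.22 CPM ± 3.22, with 6.10, 3.97, 4.64, 4.56 and 11.8 CPM.

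The promoters of contractile genes are known for the CArG box, the 10-base site of serum response factor. The pattern of the box, though not each single site, is its own reverse complement. In the RefSeq table of promoters (GRCh38.p14), 13 of the 17 contractile genes were found with 23 start sites, and the 250 bases before each were searched. TAGLN, MYL9 and MYH11 were among those not found, so they were not searched. A site with 1 letter off the strict box was not counted. A CArG box was present at 3 genes, ACTG2, MYLK and SMTN, in 1 window each, and 1.16% of all 35116 such windows of the table held 1 or more. The ACTG2 window held 2 of them, which 0.0313% of all windows do. These windows are shown because they set side by side genes of the list with a strict match to the box, which is in capitals. Each is written 5′ to 3′ on the gene's strand and ends at the base before the start site.
ACTG2, chr2:73892758-73893007, plus strand: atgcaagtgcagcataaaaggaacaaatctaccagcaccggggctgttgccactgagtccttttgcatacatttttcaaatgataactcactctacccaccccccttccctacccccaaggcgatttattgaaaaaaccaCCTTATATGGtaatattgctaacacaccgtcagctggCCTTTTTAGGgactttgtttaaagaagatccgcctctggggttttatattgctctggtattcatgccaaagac
MYLK, chr3:123620549-123620798, minus strand: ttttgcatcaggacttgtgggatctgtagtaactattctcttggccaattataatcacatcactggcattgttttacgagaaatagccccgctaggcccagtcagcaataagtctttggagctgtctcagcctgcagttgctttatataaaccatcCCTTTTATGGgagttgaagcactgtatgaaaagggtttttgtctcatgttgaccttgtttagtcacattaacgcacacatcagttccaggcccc
SMTN, chr22:31084746-31084995, plus strand: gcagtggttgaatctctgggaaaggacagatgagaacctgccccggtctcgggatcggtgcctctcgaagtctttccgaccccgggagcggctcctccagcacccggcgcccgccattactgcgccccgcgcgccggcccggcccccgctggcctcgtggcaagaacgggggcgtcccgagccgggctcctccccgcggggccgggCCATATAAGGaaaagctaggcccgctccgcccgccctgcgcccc
The boxes begin 110 and 73 bases before the start in ACTG2, 94 before it in MYLK and 44 before it in SMTN. A match describes the letters only. The 3 genes with a box differed in level, at 12.6 CPM per kilobase for SMTN, 5.21 for ACTG2 and 1.99 for MYLK.

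The 3 contractile genes with the most counts varied in a like way between the untreated libraries. TAGLN read 739.9, 739, 937, 1233 and 1275 CPM, TPM1 831, 816, 1063, 1316 and 1291 CPM and CALD1 765, 710.4, 874, 1121 and 1091 CPM. In each of these 3 genes replicates 1 and 2 were the lowest, replicate 3 lay between, and replicates 4 and 5 were the highest. The summed contractile list took 0.353%, 0.339%, 0.398%, 0.503% and 0.491% of gene counts in replicates 1 to 5. TAGLN, TPM1 and CALD1 are the members with the most counts and are part of this sum, so the sum largely follows them. The sum therefore does not show that the other members of the list vary in the same way. Replicates 4 and 5 were the deepest and the shallowest library, with spike-in shares of 1.57% and 2.37%, and ANPEP was low in the same pair. The part of depth in this was not tested. ACTG2 and CNN1 did not follow this, with replicate 5 the lowest of the 5 libraries in both.

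**Figure D2:**
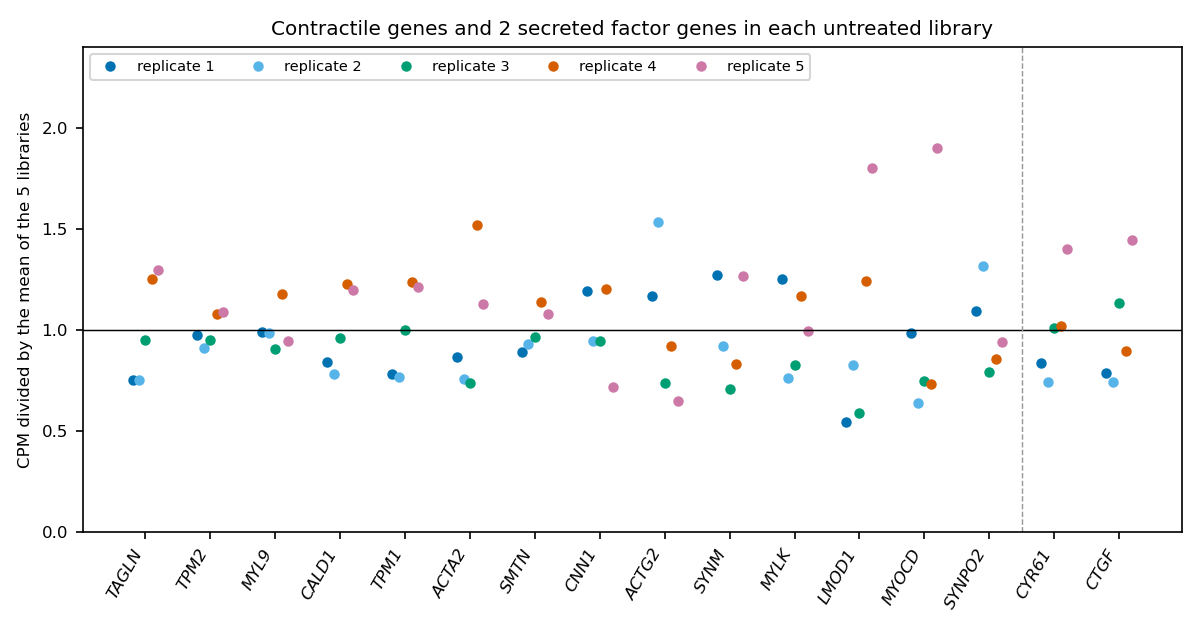
CPM of each expressed contractile gene and of 2 genes for secreted factors, divided by the gene's mean over the 5 untreated libraries (linear axis), with 1 point per library and a line at 1. TAGLN, TPM1 and CALD1 have replicates 4 and 5 above the mean and replicates 1 and 2 below it, while CYR61 and CTGF are highest in replicate 5.

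Fibroblast and stromal genes were expressed beside the mural ones. VIM, the mesenchymal intermediate filament vimentin, read 4494, 4389.6, 4631, 4009 and 3884 CPM. It shared the first place among nuclear protein-coding genes with ACTG1, cytoplasmic gamma actin, at 68440 and 68405 counts. ACTG1 was the higher in replicates 4 and 5, at 4626 and 4691.5 CPM. In the other deposited count table it also led, with 70572 counts against 68573 for VIM. PDGFRA, the receptor that marks fibroblasts rather than pericytes in most tissues (ENSG00000134853, chromosome 4, 54229097 to 54298247), read 83.9, 88.9, 103, 101 and 114 CPM. Per kilobase it read 8.62 to 11.7, below the 16.5 to 20.9 of PDGFRB, so the 2 receptor genes did not overlap. FBLN1 and FBLN2, the fibulins of elastic matrix, stood at 166 CPM ± 15.5 and 108 CPM ± 22.7, and THY1, the surface glycoprotein CD90, at 107 CPM ± 13.6. S100A4, a calcium-binding protein of motile cells, stood at 159 CPM ± 30.2, PRRX1, a homeobox factor of mesenchyme, at 129 CPM ± 26.2 and FAP, fibroblast activation protein, at 31.3 CPM ± 6.30. The small proteoglycans DCN and LUM, abundant products of resident fibroblasts, stood at only 5.03 CPM ± 1.603 and 4.10 CPM ± 1.48. SFRP2, a Wnt antagonist of skin fibroblasts, had 0 counts, and DPT, PI16, MFAP5, CFD, COL14A1 and TCF21 were all under 1 CPM. In all 15 of 23 fibroblast markers were expressed, or 65.2%, with a median of 30.3 CPM.

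Surface genes used to define cultured stromal cells were expressed in 8 of 9 cases, or 88.9%. NT5E, the ectonucleotidase CD73, stood at 336 CPM ± 45.3, ALCAM, the adhesion molecule CD166, at 472 CPM ± 59.0, CD44, the hyaluronan receptor, at 603 CPM ± 53.4 and ENG, the TGF-beta coreceptor CD105, at 229.6 CPM ± 24.6. Per kilobase they lay at 74.1, 65.7, 60.3 and 58.3, with overlapping ranges between neighbours. NGFR, the nerve growth factor receptor, stood at 1.15 CPM ± 0.693 and was the member that missed the threshold.

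Markers of other lineages were mostly absent. Of 16 endothelial markers 4 were expressed, or 25%, and the list summed to 31.4 to 44.2 CPM in the 5 libraries. Of the defining adhesion genes CDH5 had 1 count in all and PECAM1 stood at 1.09 CPM ± 0.628. The clotting factor carrier VWF had 2 counts in all, the VEGF receptor KDR read 0, 0.331, 0, 0 and 1.01 CPM, most of it in replicate 5, and EMCN and PLVAP had 0 counts. The 4 expressed were ROBO4 at 13.2 CPM ± 3.19, EGFL7 at 10.2 CPM ± 2.36, TEK at 3.48 CPM ± 1.70 and TIE1 at 3.23 CPM ± 1.28. Of 14 leukocyte markers 3 were expressed, with the list summed to 25.5 to 32.1 CPM. PTPRC, the pan-leukocyte marker CD45, and 7 others had 0 counts, and CD14, the lipopolysaccharide coreceptor, stood at 18.5 CPM ± 1.16, which made up most of that sum. Exons of CD68 overlap other annotated genes over 85.8% of their length, so its 3.45 CPM ± 1.84 is uncertain.

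Of 14 epithelial markers 3 were expressed, all keratins. KRT18, a simple-epithelium keratin that cultured mesenchymal cells can carry, stood at 162 CPM ± 15.5, with its partner KRT8 at 11.3 CPM and KRT7 at 4.90 CPM. Per kilobase KRT18 read 44.8 to 56.1 and KRT8 1.44 to 2.06, without overlap. CDH1, the epithelial cadherin, had 0 counts. Neural and glial markers were expressed in 4 of 13 cases, among them the myelin gene MBP at 24.6 CPM ± 7.50 and the synaptic vesicle gene SYT1 at 20.7 CPM ± 3.86, while AQP4, OLIG2 and S100B had 0 counts. Of 11 skeletal muscle markers 2 were expressed, DMD, dystrophin, at 8.84 CPM ± 3.55 and MYH3, an embryonic myosin, at 2.16 CPM ± 0.587, and PAX7, MYF5, MYOD1 and MYOG had 0 counts. PPARG and LPL were the 2 of 7 adipocyte markers expressed, and RUNX2 and SOX9 the 2 of 9 bone and cartilage markers, at 13.6 CPM ± 1.49 and 54.98 CPM ± 11.6. Each of these 7 lists had a smaller share of expressed members than the 55% of protein-coding genes.

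Receptor tyrosine kinases were expressed in 25 of 36 cases, or 69.4%, and AXL stood above PDGFRB. AXL, the receptor for the vitamin K-dependent ligand GAS6 (ENSG00000167601, chromosome 19, 41219203 to 41261766), read 518, 560.3, 458, 546 and 476 CPM, or 99.3 ± 8.51 CPM per kilobase. Its range per kilobase, 89.0 to 109, lay above that of every other member of the list. EPHA2, an ephrin receptor, and PTK7, a pseudokinase of Wnt and planar polarity signalling, followed at 26.0 ± 2.97 and 23.6 ± 3.25 CPM per kilobase with overlapping ranges. PDGFRB came next at 18.8 ± 1.63, with a range that overlapped that of PTK7. EGFR, the epidermal growth factor receptor, read 165, 165, 173, 151 and 161 CPM, or 13.0 ± 0.633 CPM per kilobase. Its range per kilobase lay below that of PDGFRB, but in CPM the order was reversed, with means of 163 for EGFR and 134 for PDGFRB. DDR2, a receptor for fibrillar collagen, stood at 134 CPM ± 16.0, FGFR1 at 95.5 CPM ± 11.6 and MET, the receptor of hepatocyte growth factor, at 58.7 CPM ± 9.58. DDR2 kept 77.7% of the counts it has in the other deposited count table, so its level is uncertain. The insulin receptor INSR stood at 6.73 CPM ± 0.314 and its relative IGF1R at 11.7 CPM ± 2.81. ERBB4 had 0 counts, and ERBB3 and FLT4 were under 1 CPM.

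**Figure D3:**
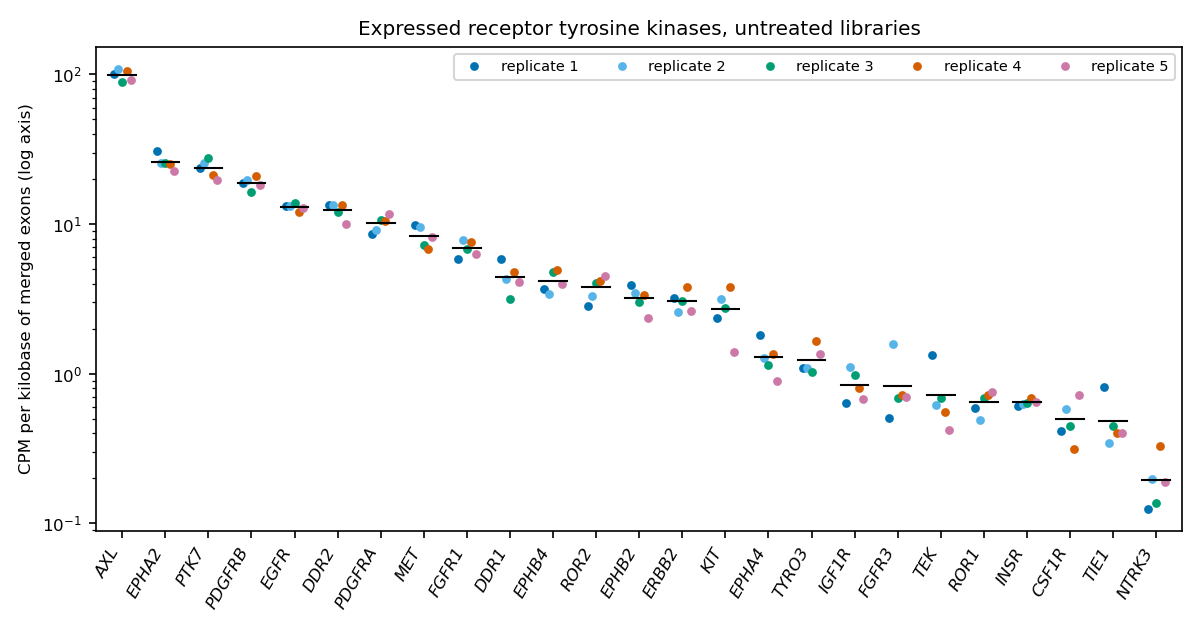
CPM per kilobase (log axis) of the 25 expressed receptor tyrosine kinase genes in each of the 5 untreated libraries, with 1 point per library and a bar at the mean. AXL lies alone at 99.3 CPM per kilobase, followed by EPHA2, PTK7 and PDGFRB, at 18.8, and the ranges of most later neighbours overlap.

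A receptor proposed for eNAMPT was transcribed. TLR4, the lipopolysaccharide receptor that eNAMPT has been described to bind (ENSG00000136869, chromosome 9, 117704175 to 117724730), read 32.3, 42.6, 41.4, 32.7 and 37.8 CPM, or 2.82 CPM per kilobase. Among the other Toll-like receptors TLR3 stood at 7.08 CPM ± 3.49, and TLR2 and TLR5 were under 1 CPM. In the cytokine and innate immune list 20 of 24 genes were expressed, or 83.3%. TNFRSF12A, the receptor of the cytokine TWEAK, led it at 332 CPM ± 32.1, or 179.7 CPM per kilobase, clear of TNFRSF1A, the main TNF receptor, at 25.4. IL6ST, the gp130 chain shared by the IL-6 family, stood at 169.6 CPM ± 17.6, and the IL-4 and IL-13 receptor chains IL4R and IL13RA1 at 75.2 CPM ± 9.63 and 71.0 CPM ± 10.9.

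Receptors of the TGF-beta family were expressed in 10 of 12 cases. The type II receptors BMPR2 and TGFBR2 stood at 145 CPM ± 13.9 and 76.1 CPM ± 9.49, and the type I receptor TGFBR1 at 33.3 CPM ± 8.33. ENG led the list per kilobase at 58.3, with TGFBR2 at 16.2 and BMPR2 at 12.2, none of them overlapping. Among Notch receptors NOTCH2 stood at 101 CPM ± 13.3, NOTCH1 at 17.5 CPM ± 1.67 and NOTCH3 at 8.01 CPM ± 1.49. Per kilobase NOTCH2 read 4.86 to 7.07, NOTCH1 1.53 to 1.89 and NOTCH3 0.611 to 0.987, so the receptor most tied to mural cells was the lowest of the 3 and did not overlap the others. NOTCH4 fell short of the threshold, at 2.85 CPM ± 1.97. Of the Wnt receptors 9 of 10 were expressed, with FZD2 at 168 CPM ± 28.9 and, per kilobase, above all other frizzled genes (79.4 against 13.2 for FZD6).

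G protein coupled receptors of vascular tone were expressed in 14 of 23 cases, or 60.9%, a share near the 55% of all protein-coding genes. The oxytocin receptor OXTR stood at 62.6 CPM ± 17.7 and the thrombin receptor F2R at 54.6 CPM ± 4.10, and they shared the top of the list per kilobase, at 13.9 and 13.4, with overlapping ranges. S1PR3, a sphingosine-1-phosphate receptor, stood at 45.2 CPM ± 7.65. ADRA1B had 0 counts. The endothelin receptor EDNRA stood at 6.10 CPM ± 1.24 and the angiotensin receptor AGTR1 at 1.65 CPM ± 0.692. Of 18 integrin genes 14 were expressed. ITGB1, the chain shared by most matrix-binding integrins, stood at 366 CPM ± 42.5 but kept only 27.1% of its counts in the other deposited table, so its level here is a low estimate against that table. The alpha chains ITGA3, ITGA5, ITGA1 and ITGA2, which pair with ITGB1 to bind laminin, fibronectin and collagen, stood at 169, 84.2, 81.6 and 79.2 CPM. ITGB6, an epithelial chain, had 0 counts.

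Secreted growth factors were expressed in 33 of 44 cases, or 75.0%, and the list was led by CYR61 and CTGF, both known targets of YAP and the TEAD transcription factors. CYR61, a matricellular protein now named CCN1 (ENSG00000142871, chromosome 1, 85580761 to 85583962), read 629, 559, 762, 768 and 1056 CPM. CTGF, connective tissue growth factor or CCN2 (ENSG00000118523, chromosome 6, 131948176 to 131951373), read 298, 281, 429, 339 and 548 CPM. Per kilobase they stood at 307 ± 77.5 and 162 ± 47.2, with overlapping ranges between them and CTGF clear of the next member, ADM, at 47.0. In both genes replicate 5 was the highest and replicate 2 the lowest. The TEAD genes TEAD1 and TEAD4 stood at 248 CPM ± 15.8 and 46.7 CPM ± 5.44, and the coactivators YAP1 and WWTR1 at 105 CPM ± 15.4 and 79.8 CPM ± 10.4.

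The promoter of CTGF is shown because it holds 3 matches to GGAATG, the core letters of the TEAD site, searched on both strands and set in capitals. Such a match was present in 11.9% of the 35116 promoter windows, and 2 or more in 0.940%. It was also present at 5 of the 13 contractile genes searched, in 6 of their 23 windows. CYR61 was not found among the promoters and was not searched.
CTGF, chr6:131951373-131951622, minus strand: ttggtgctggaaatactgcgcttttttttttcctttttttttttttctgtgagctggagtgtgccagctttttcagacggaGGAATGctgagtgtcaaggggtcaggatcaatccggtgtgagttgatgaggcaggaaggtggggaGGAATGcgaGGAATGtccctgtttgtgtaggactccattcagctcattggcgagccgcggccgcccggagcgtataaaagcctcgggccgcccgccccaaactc
The matches begin 169, 104 and 95 bases before the start. They are a description of the letters, and no binding was measured here.

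Among factors that act on the vessel wall, FGF2 stood at 159 CPM ± 28.9, the vasodilator peptide ADM at 128 CPM ± 16.5 and HBEGF, an EGF receptor ligand, at 105 CPM ± 14.5. PGF, placental growth factor, stood at 89.7 CPM ± 13.8, the endothelin precursor EDN1 at 81.0 CPM ± 20.5 and INHBA, the activin A chain, at 79.7 CPM ± 14.5. The ligand that PDGFRB is known for, PDGFB, read 0.915, 2.31, 0, 0.537 and 0.337 CPM and missed the threshold, while PDGFA, the ligand of PDGFRA, read 111, 111, 125, 107 and 134 CPM. Per kilobase PDGFA stood at 28.3. VEGFA stood at 22.02 CPM ± 8.11 and ANGPT1, the TEK ligand that pericytes are known to supply to endothelium, at 6.11 CPM ± 1.10. IGF2 and TGFA had 0 counts, with exons of IGF2 shared over 73.7% of their length with another annotated gene on the same strand. IGF1 was at 0.0537 CPM, with 82.4% of its exons overlapped by the opposite-strand gene HELLPAR.

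Antagonists and binding proteins were expressed in 20 of 23 cases, or 87.0%, with a median of 150.3 CPM. IGFBP7, an insulin-like growth factor binding protein of vessel walls, stood at 223 ± 34.5 CPM per kilobase. FSTL1, follistatin-like 1, stood at 732 CPM ± 41.3. GREM1, the BMP antagonist gremlin 1 (ENSG00000166923, chromosome 15, 32717974 to 32745107), read 815, 879, 960.4, 761 and 852 CPM, or 58.4 CPM per kilobase. SERPINE2, protease nexin 1, stood at 277 CPM ± 20.96, the tissue factor inhibitor TFPI at 217 CPM ± 11.6 and the stanniocalcins STC1 and STC2 at 199.9 CPM ± 52.1 and 198 CPM ± 41.5. SFRP2 had 0 counts.

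Cytokines and chemokines were expressed in 16 of 27 cases, or 59.3%, a share near that of all protein-coding genes. CCL2, the monocyte chemokine (ENSG00000108691, chromosome 17, 34255218 to 34257203), read 149, 148, 163, 147 and 224 CPM, with replicate 5 above the 4 others, which lay close together. IL11, a cytokine of the IL-6 family, read 122, 89.6, 203, 116 and 129 CPM, with replicate 3 above the rest. CXCL12, the ligand of CXCR4 made by stromal cells, stood at 46.1 CPM ± 1.36 and CXCL8, interleukin 8, at 42.7 CPM ± 10.6. IL6 itself stood at 1.30 CPM ± 0.653 and missed the threshold. TNF, IL33 and CCL20 had 0 counts. MIF stood at 39.2 CPM ± 20.5, and its antisense gene overlaps 62.0% of its exons, so that level is uncertain. NAMPT, whose secreted form the series studied (ENSG00000105835, chromosome 7, 106248285 to 106286326), read 74.7, 67.4, 59.0, 63.1 and 59.7 CPM, a mean of 64.8 CPM ± 6.50, and kept 65.3% of its counts in the other deposited table, so its level is uncertain.

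Wnt ligands and guidance cues were expressed in 10 of 19 cases, or 52.6%, again near the share of all protein-coding genes. WNT5B read 289.5, 259, 290.2, 239.9 and 297 CPM, or 63.9 CPM per kilobase, clear of SEMA3C, a semaphorin that guides axons and vessels, at 21.3. WNT5A, its close relative in non-canonical Wnt signalling, stood at 82.3 CPM ± 11.3. SLIT2, a ligand of ROBO receptors, stood at 42.9 CPM ± 9.82 and JAG1, the Notch ligand, at 33.8 CPM ± 7.13.

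The chains of collagen I led the matrix collagens, and chains of the basement membrane were transcribed beside them. Collagen genes took 0.800% ± 0.0431 of gene counts, with 22 of 44 members expressed. COL1A1 (ENSG00000108821, chromosome 17, 50183289 to 50201632), the alpha 1 chain of fibrillar collagen I, read 2983, 3125, 3187, 4013 and 3533 CPM, or 343 ± 42.1 CPM per kilobase. COL1A2, the partner chain, read 1048, 1078, 895, 1071 and 888 CPM, or 89.3 ± 8.62 CPM per kilobase. Both chains join in the collagen I heterotrimer, and between them on the per kilobase scale lay COL6A1, a chain of beaded-filament collagen VI, at 144 ± 18.1. None of these 3 overlapped per kilobase, but in CPM COL1A2 stood above COL6A1, at means of 996 and 769. The basement membrane chains COL4A1 and COL4A2, which share a bidirectional promoter, stood at 325 CPM ± 63.6 and 543 CPM ± 83.3. Per kilobase they read 22.1 ± 4.32 and 28.2 ± 4.32, with overlapping ranges. COL6A3 and COL5A2 stood at 422 CPM ± 46.9 and 278 CPM ± 10.2 and COL5A1 at 220.1 CPM ± 7.55. COL3A1, the fibrillar collagen that accompanies collagen I in vessel walls, read 165, 160.0, 133, 137 and 113 CPM, or 20.8 CPM per kilobase. COL23A1, COL20A1, COL9A1 and COL26A1 had 0 counts.

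**Figure D4:**
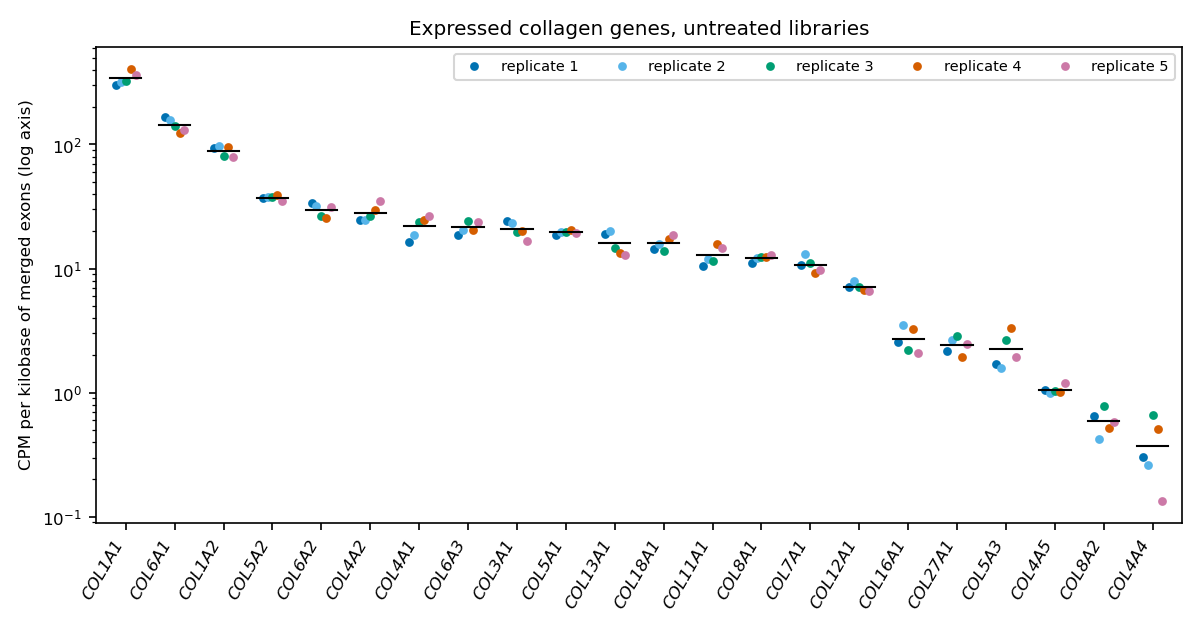
CPM per kilobase (log axis) of the 22 expressed collagen genes in each of the 5 untreated libraries, with 1 point per library and a bar at the mean. COL1A1 at 343 CPM per kilobase, COL6A1 at 144 and COL1A2 at 89.3 do not overlap, and COL6A2 through COL7A1 form a run of neighbours with overlapping ranges.

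Basement membrane laminins were expressed in 13 of 15 cases together with nidogens and perlecan. The chains LAMC1, LAMB1 and LAMA4, which together form a laminin heterotrimer of vessel walls, led the list at 249.9 CPM ± 22.7, 184 CPM ± 6.98 and 164 CPM ± 22.2. Per kilobase they stood at 29.7 ± 2.70, 22.7 ± 0.858 and 14.2 ± 1.91, each clear of the next. LAMB2 stood at 48.0 CPM ± 10.2, the perlecan gene HSPG2 at 56.4 CPM ± 6.58 and NID1, nidogen 1, at 39.6 CPM ± 2.68. The alpha chains LAMA5, LAMA1 and LAMA2 stood at 14.5, 13.8 and 10.0 CPM.

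Among glycoproteins 26 of 32 were expressed, or 81.2%. SPARC, a collagen-binding glycoprotein, led per kilobase at 287 ± 20.1, above FN1, fibronectin, at 174 ± 10.8 and CCDC80 at 160.2 ± 31.99, whose ranges overlapped. CCDC80 read 1812, 1694, 1898, 2666 and 2399 CPM and kept 82.0% of its counts in the other deposited table. FN1 read 2920.1, 2841, 2869, 3284 and 3107 CPM. TGFBI, a TGF-beta induced adhesion protein, stood at 763 CPM ± 104, the microfibril gene FBN1 at 469.7 CPM ± 43.6, THBS1, thrombospondin 1, at 414 CPM ± 67.4 and the crosslinking enzymes LOXL1 and LOXL2 at 285 CPM ± 47.4 and 249 CPM ± 17.3. ELN, elastin, was at 2.61 CPM ± 1.16 and POSTN, periostin, at 7.46 CPM ± 3.89. Among proteoglycans SDC4, a syndecan of focal adhesions, led at 254 CPM ± 17.8, or 97.0 CPM per kilobase, clear of BGN, biglycan, at 45.3.

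Matrix proteases and inhibitors were expressed in 24 of 28 cases. The metalloprotease inhibitors TIMP1, TIMP3 and TIMP2 stood at 475 CPM ± 39.8, 702 CPM ± 88.8 and 370.0 CPM ± 49.8, and per kilobase TIMP1 at 308 ± 25.8 lay clear of TIMP3 at 152 ± 19.3. PLAUR, the urokinase receptor, stood at 404 CPM ± 32.4 and its ligand PLAU at 192 CPM ± 46.7. MMP14, the membrane collagenase, stood at 272 CPM ± 34.97, or 60.8 CPM per kilobase, and MMP2, which MMP14 activates, at 39.7 CPM ± 7.23, or 8.05 CPM per kilobase. ADAM12 stood at 217 CPM ± 12.7. MMP10 and MMP13 had 0 counts.

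Transcription factors of mesenchyme were expressed in 38 of 44 cases, or 86.4%. NR2F2, the orphan nuclear receptor COUP-TFII known from venous and mesenchymal cells (ENSG00000185551, chromosome 15, 96325938 to 96340263), read 1093, 1034, 1042, 1151 and 1149.8 CPM, or 169 ± 8.73 CPM per kilobase. Its paralog NR2F1 stood at 296 CPM ± 38.5, or 68.7 ± 8.92 CPM per kilobase, and the ranges did not overlap. FOXD1, a forkhead factor of kidney stroma and of face mesenchyme, read 154, 121, 132, 107 and 133 CPM. TCF4 and PRRX1 stood at 160.5 CPM ± 3.73 and 129 CPM ± 26.2, the T-box factor TBX3 at 95.02 CPM ± 23.1 and ZEB2 at 88.3 CPM ± 9.21. SRF, the factor that binds the CArG box shown for ACTG2, MYLK and SMTN, stood at 80.7 CPM ± 8.80, and its coactivators MRTFA and MRTFB at 13.0 CPM ± 4.07 and 15.1 CPM ± 3.49. TBX5 had 0 counts.

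Factors that mark position and stage in the embryo were expressed in part. MSX1, a homeobox factor of facial mesenchyme, stood at 175 CPM ± 22.2, and ZIC1 and ZIC2, zinc finger factors of dorsal neural tube and cranial mesenchyme, at 131 CPM ± 10.3 and 51.0 CPM ± 2.87. ZIC1 read 145, 132, 119, 135 and 122 CPM. The chromatin proteins HMGA1 and HMGA2, abundant in embryonic and transformed cells, stood at 718 CPM ± 156 and 115 CPM ± 22.6. HMGA1 read 881, 843, 726, 498 and 641 CPM, lowest in replicate 4. SOX9 and SOX4 stood at 54.98 CPM ± 11.6 and 47.3 CPM ± 5.45. In this list 19 of 43 genes were expressed, or 44.2%, and PAX3, PAX7, MEIS1, HAND2, SOX2, SOX11, GATA3, WT1 and LIN28B were among the 12 at 0 counts.

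HOX genes, which are used in a head-to-tail order along the trunk and are silent in most of the head, were expressed in 4 of 39 cases, or 10.3%. The 4 were HOXB2 at 5.80 CPM ± 2.00, HOXC6 at 4.69 CPM ± 0.545, HOXC4 at 3.69 CPM ± 1.67 and HOXC8 at 3.38 CPM ± 1.25. All 39 genes summed to 22.8 to 30.03 CPM per library, and 21 had 0 counts. No gene of the HOXA or HOXD clusters was expressed. Exons of several members overlap other annotated genes, among them HOXD4 over 80.5%, HOXD3 over 74.1% and HOXA7 over 62.5%, so a 0 for those is uncertain.

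Factors that respond to signals were expressed in 27 of 28 cases. JUN, an AP-1 subunit, stood at 398 CPM ± 45.1, ATF4, the stress response factor, at 290.0 CPM ± 21.1, and HIF1A at 306 CPM ± 28.3. ATF4 and JUN led the list per kilobase at 115 and 112, with overlapping ranges. KLF6, NFE2L2, STAT3 and JUND stood at 137, 122, 112 and 103 CPM. FOS, the usual partner of JUN and an immediate early gene, read 5.49, 0.661, 2.32, 0.537 and 3.04 CPM and was the member below the threshold.

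Genes of cell division were expressed throughout. All 21 mitosis genes and all 23 DNA replication genes were expressed, and the 2 lists took 0.736% ± 0.0304 and 0.306% ± 0.00930 of gene counts. TOP2A, the DNA topoisomerase of dividing cells (ENSG00000131747, chromosome 17, 40388516 to 40417950), read 2057, 2136, 2134, 2571 and 2083 CPM, and MKI67, the proliferation marker Ki-67, 667, 637, 696, 753 and 832 CPM. PTTG1, securin, stood at 668 CPM ± 88.8, CENPF, a kinetochore protein, at 545 CPM ± 24.0, the spindle factor TPX2 at 396 CPM ± 39.1 and UBE2C at 349 CPM ± 25.6. Per kilobase TOP2A and PTTG1 shared the top of the mitosis list, at 341 ± 33.0 and 332 ± 44.1, with overlapping ranges. In the replication list PCNA, the polymerase clamp, led per kilobase at 204 ± 19.1, clear of the ribonucleotide reductase subunit RRM1 at 131 ± 12.1, and RRM1 read 548 CPM ± 50.7. The helicase subunits MCM7, MCM2 and MCM4 stood at 265, 233 and 228 CPM.

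Genes that hold cells out of the cycle were transcribed in the same libraries. CDKN2A, the locus of the CDK inhibitor p16 and of ARF (ENSG00000147889, chromosome 9, 21967753 to 21995301), read 589, 570.2, 494, 513 and 463 CPM, or 122 ± 12.2 CPM per kilobase. It was the first member of the cycle entry and arrest list, and its range lay above that of CCND1, cyclin D1, at 82.1 ± 10.6. Gene-level counts do not separate p16 from ARF. The neighbouring CDKN2B, p15, stood at 13.0 CPM ± 4.56, or 3.21 CPM per kilobase. CDKN1A, p21, read 76.6, 65.5, 91.1, 90.7 and 47.6 CPM, with replicate 5 the lowest, CDKN1B, p27, stood at 29.1 CPM ± 4.15, CDKN2C at 62.0 CPM ± 8.21 and CDKN1C at 3.97 CPM ± 2.07, the last below the threshold in at least 1 library. The kinases CDK2, CDK6 and CDK4 stood at 243 CPM ± 25.1, 213 CPM ± 23.6 and 155 CPM ± 16.8, with 43.2% of the CDK4 exons overlapped by the opposite-strand gene TSPAN31. CCND2 had 2 counts in all, which is under the floor. TERT, the telomerase subunit often used to immortalize cells, had 0 counts. The labels used here do not say how the line was immortalized. TERC, the telomerase RNA, had 0 counts too, and 81.0% of its exon is shared with a second annotation of the same RNA, so that 0 is uncertain.

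**Figure D5:**
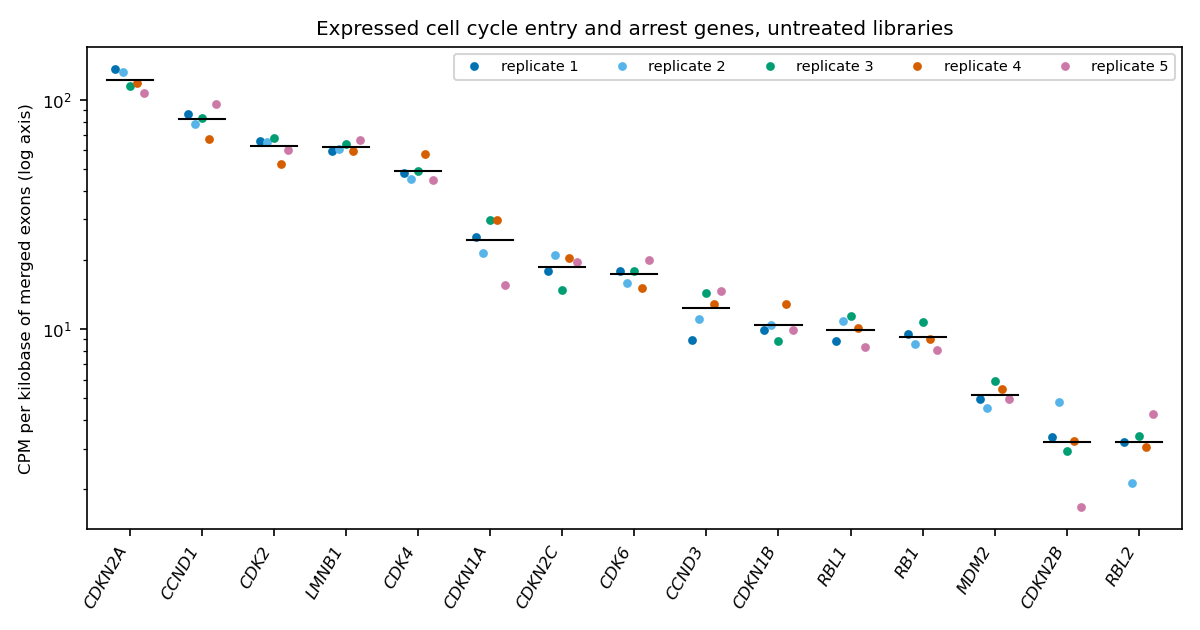
CPM per kilobase (log axis) of 15 expressed genes of cell cycle entry and arrest in each of the 5 untreated libraries, with 1 point per library and a bar at the mean. CDKN2A leads at 122 CPM per kilobase with no overlap with CCND1 at 82.1, and CDKN1A lies at 24.4.

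Genes of NAD metabolism, the pathway in which intracellular NAMPT acts, were expressed in 9 of 12 cases, or 75.0%. NNMT, which methylates the NAMPT substrate nicotinamide, read 79.9, 61.2, 95.7, 116 and 114 CPM, and PARP1, a main consumer of NAD, stood at 158 CPM ± 13.6. Per kilobase they read 32.02 and 22.1, with overlapping ranges. The deacetylase SIRT1 stood at 32.1 CPM ± 3.85, and NAPRT and QPRT, the entry enzymes of the alternative routes from nicotinic acid and from tryptophan, at 10.7 CPM ± 3.74 and 9.82 CPM ± 1.80. CD38, a surface NAD glycohydrolase, had 1 count in all. Of 18 glycolysis genes 17 were expressed, led per kilobase by GAPDH at 1219 and ENO1 at 367, and these read 3633 CPM ± 257 and 1936 CPM ± 118. The exception was ALDOA at 0.161 CPM, a gene whose exons share 42.3% of their length on the same strand with another annotated gene, which stood at 0 CPM, so that this low level is uncertain. LDHA and PGAM1 kept 52.7% and 3.51% of their counts in the other deposited table and are low estimates against it.

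Over all genes, the single genes with the most counts included mitochondrial transcripts and genes of the cytoskeleton, translation and matrix. Genes of the mitochondrial genome took 9.15% ± 0.472 of gene counts and nuclear protein-coding genes 88.7% ± 0.456, of which the 83 cytosolic ribosomal protein genes made up 7.37% ± 0.221 of all gene counts. The 10 genes with the most counts took 8.77%, the first 100 took 24.3% and the first 1000 took 55.9%. The protein-coding genes with the highest CPM were MT-CO3 at 10179 CPM ± 251 and MT-ND4 at 7298 CPM ± 299, subunits of the respiratory chain. MT-CO2 and MT-ND2, the next by CPM, kept 75.5% and 58.7% of their counts in the other deposited table. Both exceeded MT-ND4 there, so the place of MT-ND4 is uncertain. Among nuclear genes VIM at 4282 CPM ± 321, ACTG1, cytoplasmic gamma actin, at 4262 CPM ± 375, GAPDH, B2M, the light chain of MHC class I, at 3588 CPM ± 186, and COL1A1 came next. FN1, the metal-binding protein MT2A, the chaperones HSP90AA1 and HSP90AB1, the tubulins TUBB and TUBA1B, TMSB10, CAVIN1 and TOP2A were also among the first 30. CAVIN1, a coat protein of caveolae, stood at 2394 CPM ± 140.4.

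Per kilobase the order of nuclear protein-coding genes was led by short transcripts. TMSB10, the actin-sequestering peptide thymosin beta 10, stood at 5338 CPM per kilobase, MT2A at 2300.4, the histone gene HIST1H4C at 1938, the ferritin chain FTL at 1860.4 and the ribosomal protein RPS12 at 1740.3. ACTG1, GAPDH and the calcium-binding protein S100A6 followed at 1424, 1219 and 1183. Across the 10951 expressed protein-coding genes CPM was nearly unrelated to merged exon length, with Spearman's rho at 0.0359, a description over genes that share the same libraries. With CPM so little tied to length, dividing by length lowers longer genes in the order. Among transcripts that code for no protein, MT-RNR2 and MT-RNR1, the mitochondrial ribosomal RNAs, stood at 33342 CPM ± 2994 and 7296 CPM ± 1568. MT-RNR2 kept 65.1% of its counts in the other deposited table, so its level is uncertain. MALAT1, a nuclear long RNA, stood at 5479.5 CPM ± 709 and RNU4ATAC, a minor spliceosome RNA, at 1334 CPM ± 381, or 10505 CPM per kilobase, a higher mean per kilobase than that of TMSB10.

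Most genes varied between the libraries by more than counting gives, and the most variable included genes of the lists above. For the 7935 genes with a mean count of at least 50, the median coefficient of variation over the 5 libraries was 12.6%, where counting alone gives 7.72%. Their median ratio of observed to counting variance was 2.90, and 2020 of them had a ratio above 5. The common biological coefficient of variation from edgeR was 12.5% over 10356 genes. The 15 genes with the largest ratio of observed to counting variance included MT-RNR1, MT-RNR2, RNU4ATAC, MALAT1, CCDC80, MT-ATP8, MT-ND5, TAGLN, COL1A1, TPM1, CYR61, TMSB4X, MT2A and CALD1. That ratio rises with the count, so it favours abundant genes. MT-RNR1 read 8535, 7684, 7127, 4688 and 8444 CPM, with replicate 4 the lowest, and RNU4ATAC 1415, 1606, 1262, 717 and 1671 CPM, also lowest in replicate 4. MALAT1 read 4804, 4706, 5568, 6272 and 6047 CPM and TMSB4X, thymosin beta 4, 1233, 1426, 1455, 1870.0 and 1388 CPM, both highest in replicate 4. MT2A read 3185, 3352, 3164, 2698 and 2543 CPM, lowest in replicates 5 and 4. The contractile list, whose 11 members with a mean count of at least 50 had a median coefficient of variation of 21%, stood above the 12.6% of all such genes, as did other lists. The growth factors stood at 22.1% over 27 such members, the cytokines and chemokines at 22.2% over 8 and the G protein coupled receptors at 24.9% over 6. The part of library composition in this was not tested.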

How the data were processed

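RNA sequencing of the line was described from the control libraries alone. The submitters' processing notes name the GRCh38 build, the read aligner STAR (2.6.1a), the read counter featureCounts (1.6.4), FastQC (0.11.7) and DESeq2 (1.18.1). The library kit and strand setting are not given in the sources used here. The deposited table holds raw counts per gene with no normalization. A second table of counts that the authors deposited was never lower in the control libraries and was higher in 38253 cells; what separates the tables is not stated, and levels of expressed genes with under 80% of the second table are called uncertain or low estimates. Columns of treated libraries and the authors' log2 fold changes and p-values were not used.

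All 58676 genes matched GENCODE 29, and 92 ERCC and 7 SIRV rows were removed. CPM used total gene counts. Gene counts of 2963873 to 3726752 make a level of a few CPM imprecise. A single untreated group allows no test between groups. The spread came from edgeR 4.0.16 in R 4.3.3, and the estimate was checked on simulated data. Libraries are control samples by title. The members and 38 lists (832 genes, of which 577 were expressed) were chosen with earlier results of these data known.

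Genes named are the first 30 by CPM and 20 per kilobase, up to 8 expressed members of a list by CPM, defining mural, fibroblast and endothelial markers, members with at most 3 counts, the 15 most variable genes, and a few fixed genes of NAMPT and PDGF biology. A few genes that the rule names are not reported here. Named outside this rule, after their values were seen, were INSR, IGF1R, MET, TLR3, TLR5, NOTCH4, NGFR, EDNRA, AGTR1, PDGFB, VEGFA, ANGPT1, INHBA, IL6, TEAD4, WWTR1, SRF, MRTFA, MRTFB, ZEB2, FOS, COL3A1, COL6A2, COL7A1, ELN, LAMA1, LAMA2 and PGAM1. Alternatives were the second table, other thresholds, TMM and DESeq2 1.42.0 scaling, leaving out mitochondrial genes, other gene lengths, and leaving out each library.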

Additional observations from a re-analysis of the deposited data

Results flagged for a closer look

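In 17 of the 244 genes named above with more than 15 counts, 1 library stood apart from the other 4: its gap to the nearest of them was more than 0.71 of the range of all 5, the critical value of Dixon's test for 5 samples at 95%. Chance gives such a gap in about 1 of 20 genes. Replicate 5 stood apart in 8 of them. MCAM read 26.3 CPM there, above the 18.2 to 20.5 of the other libraries, and EDN1 read 116 CPM there, above the 66.5 to 80.8 of the other libraries. CCL2 read 224 CPM there, above the 147 to 163 of the other libraries, and POSTN read 14.2 CPM there, above the 4.58 to 6.98 of the other libraries. FGF2 read 209 CPM there, above the 133 to 154 of the other libraries, and MYOCD read 11.8 CPM there, above the 3.97 to 6.10 of the other libraries. ENO1 read 1734 CPM there, below the 1937 to 2017 of the other libraries, and MT-CO3 read 9748 CPM there, below the 10218 to 10394 of the other libraries. Replicate 4 stood apart in 3 of them. TOP2A read 2571 CPM there, above the 2057 to 2136 of the other libraries, and ITGA3 read 128 CPM there, below the 175 to 183 of the other libraries. BMPR2 read 121 CPM there, below the 148 to 153 of the other libraries. Replicate 1 stood apart in 3 of them. TIE1 read 5.49 CPM there, above the 2.31 to 2.98 of the other libraries, and TLR3 read 13.1 CPM there, above the 4.64 to 6.94 of the other libraries. MBP read 37.5 CPM there, above the 19.3 to 24.2 of the other libraries. Replicate 3 stood apart in 2 of them. ZEB2 read 105 CPM there, above the 82.7 to 85.6 of the other libraries, and JUN read 475 CPM there, above the 368 to 399 of the other libraries. Replicate 2 stood apart in 1. CENPF read 587 CPM there, above the 529 to 541 of the other libraries.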

How the results depend on the processing

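Of 609 alternative values for the counts of expressed genes, the shares of counts and the spread, 579 stayed within 1.5 times or 1 SD of those reported. That total includes values that could not fail, since leaving out 1 of 5 libraries cannot move a mean share by 1 SD. The TMM factors lay between 0.986 and 1.017, so that scaling could change little. The total is therefore no measure of how robust the results are. With no filter, that is at least 1 count in any library, expressed genes were 21607, collagens 40, pericyte markers 18, adipocyte markers 5, bone and cartilage markers 5, endothelial markers 14, epithelial markers 9, leukocyte markers 6, neural and glial markers 10, G protein coupled receptors 22, Wnt ligands and guidance cues 19, HOX genes 18 and developmental transcription factors 31. At 2 CPM in each library the adipocyte, leukocyte and skeletal muscle lists had 1 expressed member each. At a mean of 1 CPM the epithelial list had 5, and at 1 CPM in 3 or more libraries the HOX list had 7. With the other deposited table the mitochondrial genome took 10.1% of counts, its ribosomal RNAs 4.93%, the first 100 genes 23.3%, ribosomal proteins 8.07%, collagens 0.662% and mitosis genes 0.614%. With mitochondrial genes left out of the total, the first 100 genes took 17.0%, ribosomal proteins 8.12%, collagens 0.880% and mitosis genes 0.810%, which follows from the smaller total. Of 8030 pairs of expressed members within lists, 92.6% kept their order when divided by the longest transcript and 82.9% in CPM with no length. What makes the tables differ was not tested.

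Of 851 genes in the lists and rankings, the other table moved 364 by more than 1 SD, 38 of them higher by over 1.5 times and 0 lower. TMM and DESeq2 scaling moved 0 by more than 1 SD. Without any 1 library 11968 to 12074 genes were expressed, and 15 to 28 genes fell by over 1.5 times, among them PDGFB, KDR, DES and MFAP5, whose few counts lie mostly in 1 library. Levels of a few CPM are limited by depth.

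No paired analysis was possible because the levels come from no test and from a single group.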

Other observations

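Long RNAs that code for no protein, other than those named above, included NEAT1, the scaffold RNA of paraspeckles, at 333 CPM ± 52.7 (SD, n = 5), CYTOR at 264 CPM ± 31.8 and the imprinted RNA MEG3 at 214 CPM ± 23.6. CYTOR kept 70.6% of its counts in the other deposited table, so its level is uncertain. NORAD, a long cytoplasmic RNA that binds Pumilio proteins, stood at 209 CPM ± 18.1. The snoRNA host genes SNHG5, SNHG1 and SNHG16 stood at 336 CPM ± 35.2, 298 CPM ± 48.0 and 249 CPM ± 19.7. Of the 83 cytosolic ribosomal protein genes 79 were expressed. The tissue-restricted copies RPL3L and RPL10L had 0 counts, and RPL17 stood at 2.13 CPM on average, with 55.7% of its counts in the other deposited table.

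The choice of count table decides the level of a few genes. In 8 protein-coding genes the mean was under 1 CPM in the table used and at least 100 CPM in the other deposited table. The translation initiation subunit EIF3C stood at 0.181 CPM against 774 CPM, its near-identical copy EIF3CL at 0.0537 against 768, and the splicing factor U2AF1 at 0.135 against 479. NOMO2, NOMO3, NPIPB5, SRGAP2B and CBWD3 were the others. Of the expressed protein-coding genes 9805 kept at least 95% of their counts in the other table and 389 kept under 80%. What separates the tables was not tested. These genes were named after their values were seen.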
